A study of Homo sapiens with 4 samples.

Results

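The tumour library labelled erlotinib was set against the library labelled control, using every barcode of both. The erlotinib library held 306 barcodes and the control library 202, together 508 of the 1056 barcodes of the study. The cells were PANC-1, a human line of pancreatic ductal adenocarcinoma, carried as subcutaneous tumours by nude mice. Nude mice lack a working thymus and so have few T cells, and they keep macrophages, natural killer cells and stroma. The other libraries of the study were labelled agrimoniin, a plant tannin, and agrimoniin plus erlotinib, called the combination here. Each label stood for 1 library. The dose, the duration, the age of the mice and the number of tumours per library were not found in the labels. The study's design text has the name cyranin in the place where the sample label has erlotinib, and the label was followed.

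Erlotinib blocks the kinase of EGFR, the receptor for EGF, amphiregulin, epiregulin and related ligands. EGFR passes its signal through RAS, RAF and MEK to the kinase ERK, which switches on early transcription factors and also its own brakes, such as the phosphatase DUSP6 and the SPRY and SPRED inhibitors. EGFR is also made by fibroblasts, so the drug can reach the host stroma as well as the tumour cells.

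Every barcode held UMIs (unique transcript counts) of both species, so each barcode was split into a tumour part (its human genes) and a host part (its mouse genes). Limits on a part were 500 UMIs and 250 genes as minimum and 25% mitochondrial UMIs as maximum. That left 292 human parts with 3775711 UMIs in erlotinib and 193 with 2420470 UMIs in control, and 305 mouse parts with 1383630 UMIs in erlotinib and 202 with 1150462 UMIs in control. Human genes took 73.8% of UMIs in erlotinib and 68.5% in control, and the median mitochondrial share of human parts was 8.97% in erlotinib and 10.1% in control. The lowest mouse total of a barcode was 1567 UMIs in erlotinib and 2590 in control, and this difference in depth stands beside all host values. No barcode was shared between libraries. At least 90% of UMIs were human in 7 barcodes of erlotinib and 0 of control, and at least 90% were mouse in 0 barcodes of either, so nearly every barcode held RNA of both species and none was removed as a doublet. Of 10 markers of PANC-1, 7 were measured at a mean of at least 10 CPM (counts per 1000000 UMIs of the species), among them KRT8, KRT18, VIM and CD44. KRT7, GATA6 and MUC1 were below that in both libraries.

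With 1 library a side there was no replicate check and no test. Each ratio below is the erlotinib CPM over the control CPM, or its inverse where a gene is given as times lower, and compares 2 libraries rather than 2 treatments. The range after it is an exact 95% interval that covers counting error only. Over 7126 human genes the log2 ratios had a standard deviation of 0.22, against 0.13 from counting alone, and the spread beyond counting is not covered by the intervals.

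Few tumour genes differed by a large factor. Of 7126 human genes with a mean of at least 20 CPM, 138 (1.94%) were at least 1.5-fold higher in erlotinib and 115 (1.61%) at least 1.5-fold lower, 3.55% in either direction. Genes were ranked by log2 ratio with 10 CPM added to both libraries, among those detected in 10% or more of the higher library's parts, with an interval that excludes 1. IGFBP5, described below with its axis, did not pass this detection limit. The 12 genes furthest above control by this rule were IGFBP4, EGR4, ZNF90, H19, PLEKHH2, C15orf48, KIFC1, RCAN1, FAM107B, MYL9, NID1 and SLC4A11. They include an IGF-binding protein (IGFBP4), an early growth response transcription factor (EGR4), an imprinted long non-coding RNA (H19), a mitotic kinesin (KIFC1), a regulator of calcineurin (RCAN1), a myosin light chain (MYL9) and a basement membrane protein (NID1). The 12 furthest below were EMP1, EREG, HMOX1, BMPR1B, CCDC173, OSR2, MTRNR2L12, KLF4, DUSP6, SNAI1, SYNE1 and MLF1. They include an EGFR ligand (EREG), the ERK phosphatase (DUSP6), the transcription factors KLF4 and SNAI1, heme oxygenase (HMOX1) and a BMP receptor (BMPR1B). MTRNR2L12 is a nuclear copy of mitochondrial ribosomal RNA and ZNF90 has close paralogs, so the counts of both are uncertain.

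**Figure D1:**
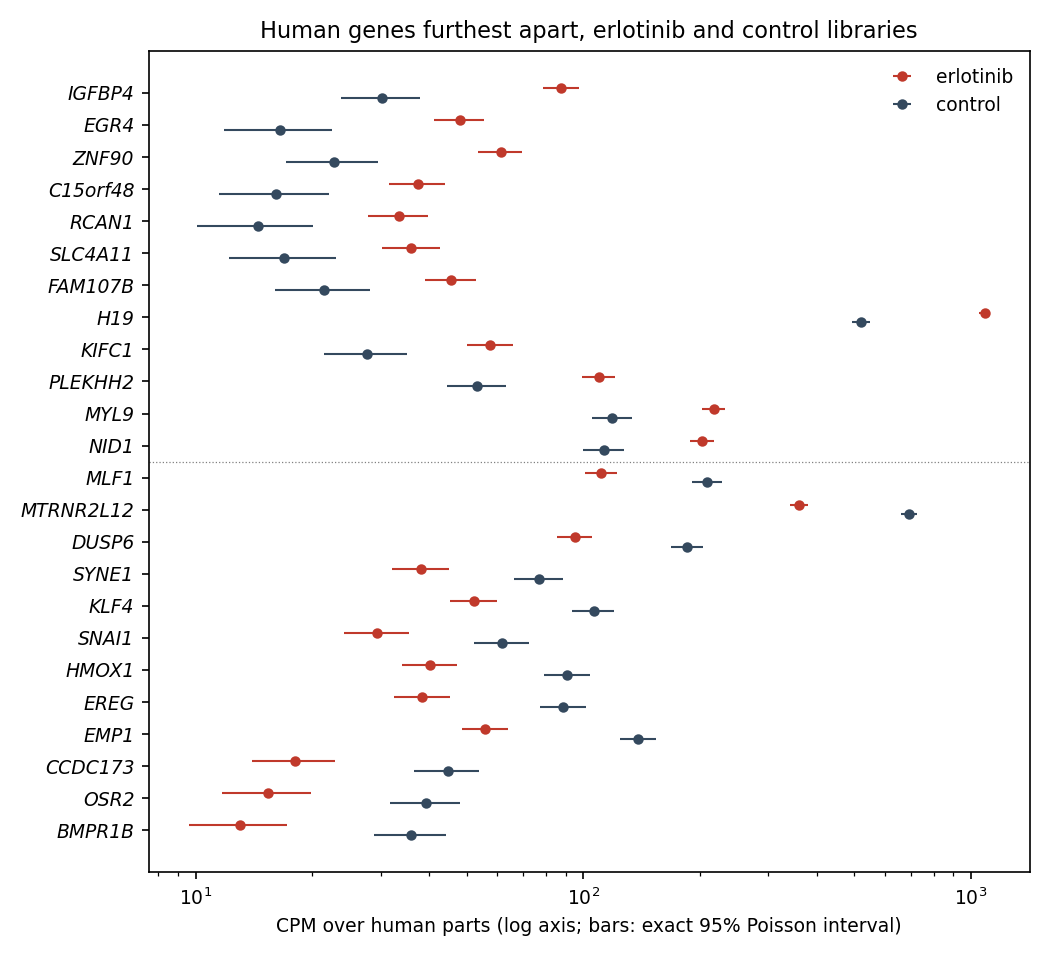
CPM over the human parts (log axis) of the 24 human genes furthest apart, for erlotinib (red) and control (dark), with exact 95% Poisson intervals. The 12 genes above the dotted line were higher in erlotinib, with H19 at 1083 CPM in erlotinib and 520 CPM in control, and the 12 below it were lower, with EMP1 at 55.9 CPM in erlotinib and 138.4 CPM in control.

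EMP1, an epithelial membrane protein, had the lowest such log2 ratio of these 12, while BMPR1B, OSR2 and CCDC173, at lower levels, had lower plain ratios. EMP1 had 55.9 CPM in erlotinib, 134.4 CPM in agrimoniin, 104.5 CPM in the combination and 138.4 CPM in control, 2.48 times lower in erlotinib than in control (2.08 to 2.96). EMP1 lies at chr12:13196716-13219939 (GRCh38). Its mouse counterpart Emp1 had 680.8 CPM in the host parts of erlotinib and 1353 CPM in those of control, a ratio of 0.50 (0.46 to 0.55), so the gene was lower in tumour and host alike. In values summed over all mouse parts, fewer cells of a type and less RNA per cell cannot be told apart.

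The next question was whether genes that ERK switches on were lower where its upstream receptor was to be blocked. They did not share one direction. Of 29 genes of this list, 25 were measured, 5 had an interval above 1 and 8 an interval below 1. Over all 9243 human genes of at least 10 CPM these shares were 11.3% above and 9.35% below. The median log2 ratio of the list was -0.06, against 0.02 over all genes, and 0.02 for the list where every barcode weighed equally.

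Among the brakes of the pathway, DUSP6, which removes the activating phosphates from ERK, stood apart. DUSP6 (chr12:89347232-89353271, minus strand) had 95.1 CPM in erlotinib, 334.1 CPM in agrimoniin, 311.9 CPM in the combination and 185.5 CPM in control. Erlotinib was lowest of the 4 libraries, and the combination, which also held erlotinib by its label, was above control. Against control, DUSP6 was 1.95 times lower in erlotinib (1.69 to 2.25). The gap held in barcodes whose host part was macrophage-like, with 88.1 CPM in erlotinib and 172.4 CPM in control, and in those whose host part was fibroblast-like, with 87.1 CPM in erlotinib and 184.0 CPM in control. In barcodes with at least 75% human UMIs its log2 ratio was -0.43, against -0.90 in all parts. Among the other brakes, intervals of SPRY1, SPRY2, SPRY4, SPRED1, SPRED2 and DUSP5 held 1, and ERRFI1, an inhibitor of EGFR itself, had 1139 CPM in erlotinib and 1225 CPM in control, a ratio of 0.93 (0.89 to 0.97).

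The early transcription factors split. FOSB had 540.0 CPM in erlotinib and 728.8 CPM in control, a ratio of 0.74 (0.69 to 0.79), and EGR3 had 9.27 CPM in erlotinib and 18.6 CPM in control, a ratio of 0.50 (0.31 to 0.79). FOS had a ratio of 0.89 (0.85 to 0.93) and MYC of 0.77 (0.63 to 0.93). JUN, JUNB and EGR1 lay the other way, with ratios of 1.08 (1.02 to 1.14), 1.12 (1.04 to 1.20) and 1.08 (1.03 to 1.14), but beside macrophage-like host parts their log2 ratios were -0.01, -0.01 and -0.03. Of other ERK-dependent genes, IER3 (0.75, 0.67 to 0.83) and PHLDA1 (0.81, 0.75 to 0.88) were lower. CCND1, the cyclin that links growth signals to the cell cycle, was higher, with 415 CPM in erlotinib and 322.3 CPM in control, a ratio of 1.29 (1.18 to 1.41).

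Of the EGFR family and its ligands, 8 of 14 genes were measured and EREG was the single gene whose interval excluded 1. Among all human genes of at least 10 CPM 11.3% were above and 9.35% below. EREG, which encodes epiregulin (chr4:74365143-74388751), had 38.4 CPM in erlotinib, 56.1 CPM in agrimoniin, 39.9 CPM in the combination and 88.8 CPM in control. All 3 treated libraries were below control, and in erlotinib EREG was 2.31 times lower (1.87 to 2.88). The target of the drug, EGFR (chr7:55019021-55211628), had 183.8 CPM in erlotinib and 169.0 CPM in control, a ratio of 1.09 (0.96 to 1.23). AREG, which encodes amphiregulin, had 12.2 CPM in erlotinib and 16.9 CPM in control, a ratio of 0.72 (0.46 to 1.12). The intervals of the ligands TGFA, HBEGF and NRG1 and of the sheddases ADAM10 and ADAM17 also held 1. Among other receptor kinases and their ligands, FGFR1 (0.71, 0.58 to 0.86) and VEGFA (0.80, 0.70 to 0.90) were lower, and 0 of 13 measured genes were higher. Beside macrophage-like host parts FGFR1 had 64.7 CPM in erlotinib and 65.5 CPM in control, and in barcodes with at least 75% human UMIs VEGFA had a log2 ratio of 0.11.

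**Figure D2:**
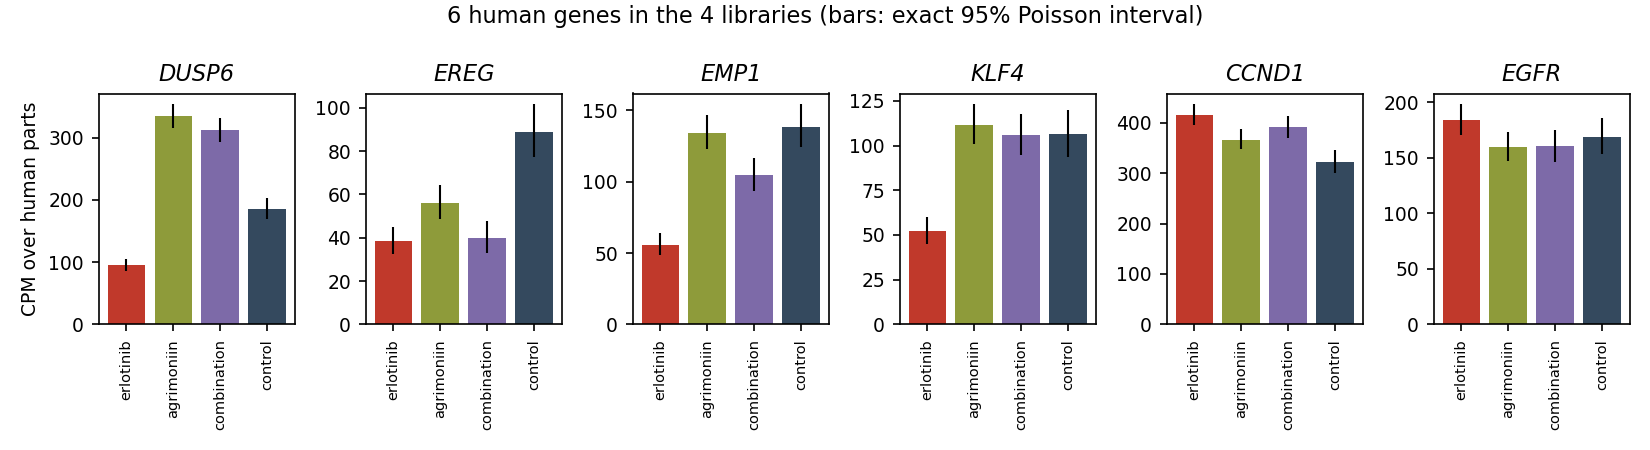
CPM over human parts in the erlotinib, agrimoniin, combination and control libraries for 6 human genes, with exact 95% Poisson intervals. DUSP6, EMP1 and KLF4 were lowest in erlotinib of the 4 libraries, EREG was highest in control, CCND1 had its highest bar in erlotinib, and EGFR lay between 159.9 CPM and 183.8 CPM.

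The promoters of DUSP6 and EREG are shown because these were the pathway's brake and ligand that lay furthest below control. Both are the 250 bases before the RefSeq start (GRCh38.p14), at chr12:89352502-89352751 on the minus strand and at chr4:74364895-74365144 on the plus strand. Capitals mark matches, on either strand, to the motifs searched in all promoters, which were E2F (GCGGGAA), CHR (TTTGAA), the CCAAT box (CCAAT), ETS (CCGGAAG), AP-1 (TGANTCA), CRE (TGACGTC) and the GC box (GGGCGG).
DUSP6: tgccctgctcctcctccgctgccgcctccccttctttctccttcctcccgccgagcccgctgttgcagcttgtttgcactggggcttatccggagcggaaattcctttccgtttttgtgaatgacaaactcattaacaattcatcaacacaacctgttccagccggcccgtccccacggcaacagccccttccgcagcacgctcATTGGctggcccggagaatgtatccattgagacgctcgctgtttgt
EREG: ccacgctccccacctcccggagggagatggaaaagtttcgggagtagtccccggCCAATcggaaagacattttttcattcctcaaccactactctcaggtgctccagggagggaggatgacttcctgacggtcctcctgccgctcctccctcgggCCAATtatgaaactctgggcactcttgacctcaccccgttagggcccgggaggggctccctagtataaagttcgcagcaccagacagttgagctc
Each held CCAAT boxes alone, 1 in DUSP6 and 2 in EREG. A CCAAT box was in 33.0% of 27305 promoters of this length. Of 19 promoters found for the ERK list, 0 held the ETS letters and 1 (5.26%) the AP-1 letters. ETS letters were in 8.82% of all promoters and 19.1% of those of genes of at least 20 CPM, and AP-1 letters in 6.60% of all and 3.35% of those.

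Genes of dividing cells were more abundant in erlotinib. Of 31 measured S phase genes 11 had an interval above 1 and 1 below, and 6 were at least 1.5-fold higher. Over all 9243 genes of this minimum 11.3% were above and 9.35% below, and 342 were at least 1.5-fold higher. Of 33 measured G2 and mitosis genes 12 were above, 0 below and 5 at least 1.5-fold higher. The summed CPM of the S phase list was 1841 in erlotinib, 1729 in agrimoniin, 1738 in the combination and 1533 in control, a ratio of 1.20 (1.154 to 1.250) to control. For the G2 and mitosis list the sums were 3069, 3108, 2854 and 2774 CPM in the same order, a ratio of 1.11 (1.07 to 1.14).

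In the S phase list the sliding clamp PCNA (chr20:5114953-5126626) had 145.1 CPM in erlotinib, 118.1 CPM in agrimoniin, 125.1 CPM in the combination and 93.4 CPM in control, a ratio of 1.55 (1.33 to 1.82). The flap nuclease FEN1 had a ratio of 1.59 (1.20 to 2.13), the chromatin regulator UHRF1 of 1.92 (1.26 to 3.01) and thymidylate synthase TYMS of 1.43 (1.26 to 1.63). The replication helicase genes MCM3, MCM4, MCM5 and MCM6 lay between 1.32 and 1.76.

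In the mitosis list the kinase CDK1 (chr10:60778331-60794852) had 63.0 CPM in erlotinib, 49.6 CPM in agrimoniin, 52.1 CPM in the combination and 33.5 CPM in control, a ratio of 1.88 (1.46 to 2.46). The kinesin KIFC1 had 57.5 CPM in erlotinib and 27.7 CPM in control (2.08, 1.57 to 2.77), and the checkpoint kinase BUB1B 67.3 CPM in erlotinib and 40.9 CPM in control (1.65, 1.30 to 2.10). Survivin, encoded by BIRC5, had 75.5 CPM in erlotinib and 44.6 CPM in control (1.69, 1.35 to 2.13). The proliferation marker MKI67 had a smaller ratio of 1.18 (1.03 to 1.35), with 160.5 CPM in erlotinib and 136.3 CPM in control. Over members of at least 50 CPM the median log2 ratio of the mitosis list was 0.03, against 0.12 over all measured members.

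The distribution over parts was uneven. The upper quartile of S phase UMIs was 24.1 per 10000 human UMIs in erlotinib and 19.1 in control, and the medians were 13.2 in erlotinib and 12.3 in control. For the mitosis list the medians were 11.9 per 10000 in erlotinib and 9.05 in control, the upper quartiles were 32.9 in erlotinib and 34.8 in control, and the 90th percentiles were 75.2 in erlotinib and 68.2 in control. The gap in S phase RNA was widest in the parts with the most of it, while for the mitosis list the order of the libraries changed with the quantile.

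The promoters of PCNA, KIFC1 and CDK1 are shown as examples of the replication and mitosis genes that were higher together. PCNA is chr20:5126623-5126872 on the minus strand, KIFC1 is chr6:33391573-33391822 and CDK1 is chr10:60778081-60778330, both on the plus strand, with capitals as before.
PCNA: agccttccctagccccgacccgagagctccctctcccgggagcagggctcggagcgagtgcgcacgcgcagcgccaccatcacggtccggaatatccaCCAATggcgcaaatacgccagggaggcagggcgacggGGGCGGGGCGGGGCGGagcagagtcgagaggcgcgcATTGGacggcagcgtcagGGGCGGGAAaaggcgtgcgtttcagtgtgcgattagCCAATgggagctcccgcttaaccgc
KIFC1: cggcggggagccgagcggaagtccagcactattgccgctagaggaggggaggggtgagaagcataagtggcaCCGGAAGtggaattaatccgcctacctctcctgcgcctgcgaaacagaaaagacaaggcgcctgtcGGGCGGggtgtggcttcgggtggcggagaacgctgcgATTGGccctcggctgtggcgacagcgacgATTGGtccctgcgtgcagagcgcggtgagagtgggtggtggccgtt
CDK1: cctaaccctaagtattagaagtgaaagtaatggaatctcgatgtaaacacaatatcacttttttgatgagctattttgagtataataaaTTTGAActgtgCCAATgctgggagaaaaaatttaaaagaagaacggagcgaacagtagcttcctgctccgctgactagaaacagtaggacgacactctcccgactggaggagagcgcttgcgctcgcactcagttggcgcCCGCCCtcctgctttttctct
PCNA held 1 E2F match, which overlaps a GC box, 3 CCAAT boxes and 4 GC boxes. CDK1 held a CHR match from -161 to -156 before the start with a CCAAT box from -150 to -146, and a GC box from -21 to -16. KIFC1 held 2 CCAAT boxes, an ETS match and a GC box, and the promoter of FEN1 held none of the 7 motifs. E2F letters were in 13 of 32 S phase promoters found (40.6%) and 1 of 28 mitosis promoters (3.57%). They were in 5.58% of all promoters and 9.79% of those of genes of at least 20 CPM. CHR letters were in 13 of 28 mitosis promoters (46.4%) and 1 of 32 S phase promoters (3.12%). They were in 13.6% of all promoters and 8.63% of those of genes of at least 20 CPM. These matches are letters in a window and say nothing of binding.

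Genes of the insulin-like growth factor axis moved in both directions, 5 above and 4 below of 12 measured. The shares over all human genes of at least 10 CPM were 11.3% above and 9.35% below. IGFBP4, which binds these factors outside the cell (chr17:40443461-40457731), had 87.7 CPM in erlotinib, 48.5 CPM in agrimoniin, 56.3 CPM in the combination and 30.2 CPM in control, a ratio of 2.91 (2.25 to 3.799). H19 (chr11:1995176-2001470, minus strand), which lies beside IGF2, had 1083 CPM in erlotinib, 631.9 CPM in agrimoniin, 934.6 CPM in the combination and 520.1 CPM in control, a ratio of 2.08 (1.955 to 2.22). All 3 treated libraries were above control for both genes. IGFBP5 lay the other way, with 14.6 CPM in erlotinib, 12.2 CPM in agrimoniin, 68.2 CPM in the combination and 76.4 CPM in control.

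IGFBP5 was thus 0.19 of control in erlotinib (0.14 to 0.26). A single barcode held 34.6% of its UMIs in erlotinib and another 26.5% in control, and without both the log2 ratio was -1.76, against -1.82 with them. Beside macrophage-like host parts the ratio was 0.053 (0.022 to 0.11) and beside fibroblast-like parts 0.30 (0.18 to 0.46). The binding proteins IGFBP3 (0.63, 0.55 to 0.72) and IGFBP2 (0.62, 0.43 to 0.89) and the receptor adaptor IRS2 (0.69, 0.60 to 0.81) were also lower. In the host parts Igfbp3 had a ratio of 0.50 (0.40 to 0.62) and Igfbp5 of 1.30 (1.11 to 1.53), so mouse and human RNA of IGFBP5 lay on opposite sides of control.

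Actin and contractile genes were higher in the tumour parts. Of 15 measured targets of the actin-sensing factor SRF and of YAP, 9 were above, 1 below and 4 at least 1.5-fold higher, beside 11.3% above, 9.35% below and 342 of 9243 over all genes of at least 10 CPM, and 7 of the 9 were actin or contractile genes. MYL9 had 216.6 CPM in erlotinib, 164.7 CPM in agrimoniin, 176.9 CPM in the combination and 118.6 CPM in control, a ratio of 1.83 (1.60 to 2.10). TAGLN had 27.3 CPM in erlotinib and 12.8 CPM in control (2.13, 1.41 to 3.29), and the abundant actins ACTB and ACTG1 had ratios of 1.19 (1.16 to 1.22) and 1.23 (1.19 to 1.26). For ACTA2, smooth muscle actin, 1 barcode held 56.2% of the UMIs in erlotinib, and its log2 ratio was 0.75 without the top barcodes, against 1.33 with them. In the mouse parts the same 3 genes lay the other way, with ratios of 0.29 for Myl9, 0.31 for Tagln and 0.40 for Acta2. The YAP targets CCN1 and CCN2 had ratios of 1.00 (0.94 to 1.07) and 0.99 (0.87 to 1.14).

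Mesenchymal genes were mostly lower, 6 of 10 measured, with 1 above, and their summed ratio was 0.96 (0.94 to 0.98). All human genes of at least 10 CPM had 9.35% below and 11.3% above. SNAI1, a repressor of epithelial genes, had 29.4 CPM in erlotinib, 22.5 CPM in agrimoniin, 23.8 CPM in the combination and 61.6 CPM in control, 2.09 times lower in erlotinib than in control (1.63 to 2.70). The adhesion receptor CD44 (0.75, 0.69 to 0.82) and the repressor ZEB1 (0.79, 0.68 to 0.91) were lower, and N-cadherin CDH2 was higher (1.525, 1.26 to 1.86). Vimentin VIM had a ratio of 1.01 (0.99 to 1.03). SPARC had a ratio of 0.49 (0.36 to 0.66), but its human UMIs were only 0.93% of the mouse Sparc UMIs in erlotinib and 1.045% in control, and how many were misassigned mouse reads was not tested.

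BMP and ID genes had 3 of 10 below and 0 above, beside 9.35% below and 11.3% above over all genes of at least 10 CPM. The receptor BMPR1B had 12.98 CPM in erlotinib, 27.4 CPM in agrimoniin, 40.5 CPM in the combination and 35.9 CPM in control, 2.77 times lower in erlotinib than in control (1.93 to 4.02). The BMP target ID1 (0.73, 0.67 to 0.78) and the inhibitor SMAD7 (0.69, 0.58 to 0.82) were lower. KLF4, a factor of the quiescent epithelium, had 52.2 CPM in erlotinib, 111.6 CPM in agrimoniin, 105.8 CPM in the combination and 106.2 CPM in control, and it was 2.04 times lower in erlotinib than in control (1.68 to 2.46). KLF2, a related factor, had 173.2 CPM in erlotinib and 263.6 CPM in control (0.66, 0.59 to 0.73).

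The study's title names lactic acid, so glycolysis was examined. Of 23 measured genes of glycolysis and lactate handling, 8 were above and 2 below, with a summed ratio of 1.145 (1.12 to 1.17). Shares over all human genes of at least 10 CPM were 11.3% above and 9.35% below. Lactate dehydrogenase subunit LDHA had 878.2 CPM in erlotinib, 791.4 CPM in agrimoniin, 777.9 CPM in the combination and 725.9 CPM in control, a ratio of 1.21 (1.14 to 1.28). LDHB, its other subunit, had a ratio of 1.10 (1.005 to 1.20). The enzymes ENO1, TPI1, GPI, PGK1 and GAPDH lay between 1.155 and 1.24. The glucose transporter SLC2A1 (0.81, 0.68 to 0.97) and the regulator PFKFB3 (0.67, 0.50 to 0.88) were lower, but beside fibroblast-like host parts PFKFB3 had a ratio of 1.07 (0.65 to 1.76). The 13 mitochondrial genes of oxidative phosphorylation had 11 below and 0 above, with a summed ratio of 0.86, and 72 nuclear genes of the same complexes had 17 above and 3 below.

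Stress genes whose interval excluded 1 were more often lower than higher, while the heat-shock sum was near control. HMOX1, which breaks down heme, had 40.3 CPM in erlotinib, 50.9 CPM in agrimoniin, 25.1 CPM in the combination and 90.9 CPM in control, 2.26 times lower in erlotinib than in control (1.83 to 2.80), and 4 of 13 NRF2 target genes were below with 0 above. Of 15 heat-shock genes 6 were below and 2 above, with a summed ratio of 1.015 (1.002 to 1.027). All human genes of at least 10 CPM had 9.35% below and 11.3% above. The inducible chaperone HSPA1A, whose reads can be shared with the near-identical HSPA1B, had 4343 CPM in erlotinib and 3533 CPM in control (1.23, 1.20 to 1.26). ZFAND2A, also heat-inducible, had 60.1 CPM in erlotinib and 93.8 CPM in control (0.64, 0.53 to 0.77). The survival factor BCL2 had 16.95 CPM in erlotinib and 8.26 CPM in control (2.05, 1.23 to 3.58), and none of the other 8 measured members of its family had an interval that excluded 1. Of 8 measured genes of MHC class I presentation 0 were above and 0 below.

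**Figure D3:**
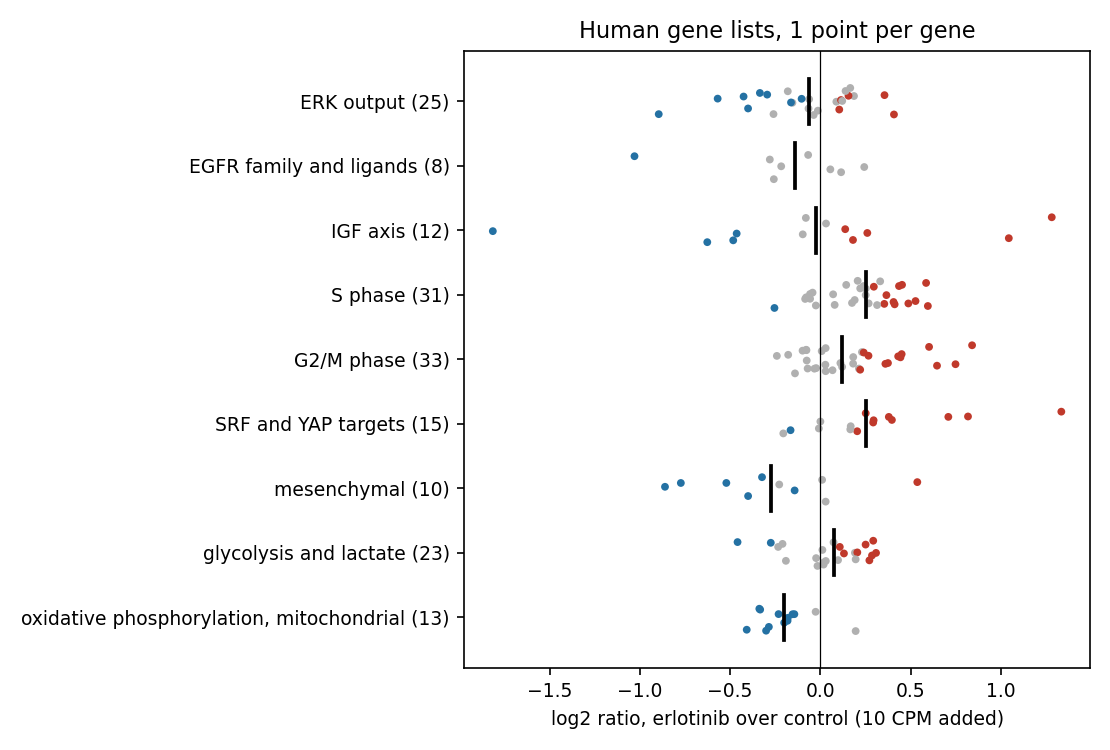
Log2 ratio of erlotinib over control for each measured gene of 9 human lists (number of genes in brackets), with 10 CPM added to both libraries. Red points have an interval above 1, blue points below 1, grey points hold 1, and the black bar is the list median. S phase and SRF and YAP targets have medians of 0.25, ERK output of -0.06 and mesenchymal genes of -0.28.

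The host libraries were further apart, with fewer UMIs behind each value than in the tumour parts. Of 6737 mouse genes of at least 20 CPM, 741 (11%) were at least 1.5-fold higher in erlotinib and 670 (9.95%) at least 1.5-fold lower, 20.9% in either direction. The named genes on the higher side included Npl, H2-Eb1, Ly6c2, Siglec1, F3, Ccnd1 and Cxcl9, among them the macrophage lectin Siglec1 and the interferon-induced chemokine Cxcl9. Those on the lower side were Mgp, Grem1, C1qtnf3, Thbs2, Serpine2, Eln, Rgs16 and Cspg4, among them matrix Gla protein (Mgp), a BMP antagonist (Grem1), elastin (Eln), a thrombospondin (Thbs2) and a proteoglycan of pericytes (Cspg4).

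The mix of host parts differed between the 2 libraries. Mouse parts of all 4 libraries were clustered and named from marker genes, and these names are rebuilt ones. Of 305 mouse parts in erlotinib, 148 (48.5%, 42.8 to 54.3) were macrophage-like, against 86 of 202 (42.6%, 35.7 to 49.7) in control. Fibroblast-like parts were 89 (29.2%, 24.1 to 34.6) in erlotinib and 85 (42.1%, 35.2 to 49.2) in control. An unnamed cluster led by Ly6c2, a gene of inflammatory monocytes, held 49 parts (16.1%, 12.1 to 20.7) in erlotinib and 14 (6.93%, 3.84 to 11.4) in control. Its median depth over the 4 libraries, 2889 mouse UMIs, was the lowest of the clusters. Only 246 of the 305 erlotinib parts reached 2590 mouse UMIs, the lowest total in control, and shares at that minimum were not computed. These shares depend on the barcodes kept, and at a resolution of 1.0 fibroblast-like parts were 19.3% in erlotinib and 27.2% in control, since part of the fibroblast clusters lost their names.

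**Figure D4:**
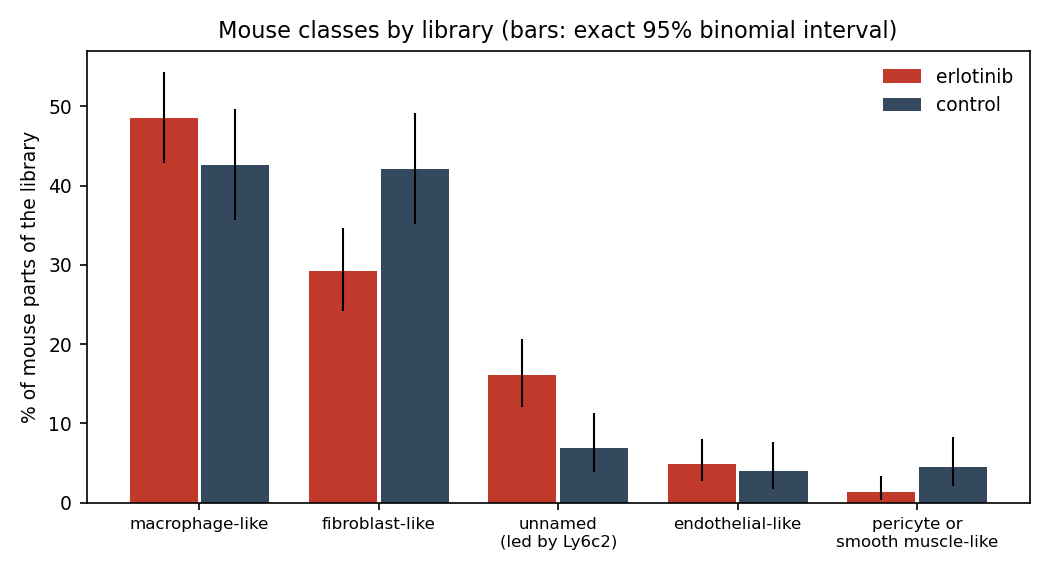
Share of the mouse parts of each library in each rebuilt class, erlotinib (red) left of control (dark), with exact 95% binomial intervals. The fibroblast-like bar is 29.2% in erlotinib and 42.1% in control, and that of the unnamed cluster is 16.1% in erlotinib and 6.93% in control.

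Markers of rarer host cells also differed, and several rested on single barcodes. The 7 pericyte or smooth muscle markers summed to 84.6 CPM in erlotinib and 529.4 CPM in control, with 4 parts of that class in erlotinib and 9 in control, and Rgs5 alone had 33 UMIs in erlotinib and 331 in control. The mast cell genes Cpa3, Tpsb2, Mcpt4 and Cma1 were found in 1 barcode of erlotinib, with 67 UMIs of Cpa3, and had 0 UMIs in control, while the marker Fcer1a was at 0 in both. The fat cell gene Adipoq had 0 UMIs in erlotinib and 146 in control, all in 1 barcode, and the natural killer protease gene Gzma had 1 UMI in erlotinib and 103 in control, again in 1 barcode. The 6 T cell markers summed to 34.7 CPM in erlotinib and 21.7 CPM in control, from Cd3e, Trac and Cd4, with Cd3d, Cd3g and Cd8a at 0 in both libraries.

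Myofibroblast RNA was lower in the host of the erlotinib tumour. Over all mouse parts 9 of 11 measured myofibroblast genes were below and 0 above, with sums of 2333 CPM in erlotinib, 2753 CPM in agrimoniin, 4967 CPM in the combination and 5644 CPM in control. Shares of all 8732 mouse genes of at least 10 CPM were 13.9% above and 12.6% below. Within fibroblast-like parts 9 of 11 were below and 1 above, where 10.2% of all genes of at least 10 CPM were below and 9.39% above. Their sum there was 5019 CPM in erlotinib and 9708 CPM in control (0.52, 0.49 to 0.54). Pericyte or smooth muscle markers summed in the same parts to 92.3 CPM in erlotinib and 275.2 CPM in control (0.34, 0.24 to 0.46), and their part in the result was not tested. Smooth muscle actin Acta2 had 591 CPM in erlotinib and 1229 CPM in control (0.48, 0.42 to 0.55), and periostin Postn 979.6 CPM in erlotinib and 2263 CPM in control (0.43, 0.39 to 0.48). Cthrc1 was the exception, with 530.6 CPM in erlotinib and 417.8 CPM in control (1.27, 1.07 to 1.51).

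The fibroblast-like class was made of different clusters in the 2 libraries. The cluster led by Grem1 and Lrrc15 held 54 of its 89 parts in erlotinib and 71 of 85 in control, and the cluster led by Prg4 held 35 in erlotinib and 14 in control. Genes that lead these clusters, such as Grem1, Tagln, Prg4 and Mmp3, move with this mix. In the Grem1-led cluster alone the myofibroblast sum had a ratio of 0.64 (0.61 to 0.67), Acta2 of 0.66 (0.57 to 0.75) and Postn of 0.48 (0.43 to 0.54), beside 0.47 (0.33 to 0.66) for the pericyte or smooth muscle markers.

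Collagens did not share one direction. Over all mouse parts 14 of 18 were below and 1 above, where 12.6% and 13.9% of all genes of at least 10 CPM were. Chains of the main fibril collagens were near control, with ratios of 1.01 (0.99 to 1.03) for Col1a1 and 1.10 (1.06 to 1.14) for Col3a1. Within fibroblast-like parts Col1a1 had 47888 CPM in erlotinib and 34290 CPM in control (1.40, 1.37 to 1.42) and Col3a1 12628 CPM in erlotinib and 8418 CPM in control (ratio interval 1.447 to 1.555). Col8a1 (0.47, 0.43 to 0.51), Col6a3 (0.61, 0.55 to 0.67) and the basement membrane chain Col4a1 (0.74, 0.67 to 0.82) were lower there. In the Grem1-led cluster alone 7 of 18 collagens were above and 5 below, and 0 were at least 1.5-fold lower. Of all 8149 genes of at least 10 CPM in that cluster, 518 were above and 600 below. The summed ratio of the 18 collagens in that cluster was 1.325 (1.307 to 1.344). Of 18 matrix proteins and crosslinkers 12 were below and 1 above in fibroblast-like parts. Over all genes of at least 10 CPM there, 10.2% were below and 9.39% above. In this list Thbs2 was at 0.35 (0.31 to 0.40), elastin Eln at 0.29 (0.20 to 0.42) and the crosslinking enzyme Lox at 0.58 (0.53 to 0.64). Decorin Dcn was the one above (1.58, 1.34 to 1.88). For the same 18 genes the Grem1-led cluster alone had 11 below and 2 above, with a summed ratio of 0.93 (0.91 to 0.95).

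Inflammatory and adventitial fibroblast genes were higher. Within fibroblast-like parts all but Il6 of the 14 measured genes had an interval above 1. Over all genes of at least 10 CPM there, 9.39% were above and 10.2% below. The sum of the list there was 5221 CPM in erlotinib and 2305 CPM in control (2.27, 2.13 to 2.42). In the Grem1-led cluster alone that ratio was 1.22 (1.10 to 1.35), with 7 of 11 measured genes above and 1 below. Of all 8149 genes of at least 10 CPM in that cluster, 518 were above and 600 below. Saa3, an acute-phase protein gene, had 800.4 CPM in erlotinib and 11.6 CPM in control, with 1 part holding 38.4% of its UMIs in erlotinib, and in the Grem1-led cluster it had 42.9 CPM in erlotinib and 11.3 CPM in control, from 1 part each. The lubricin gene Prg4 had 525.3 CPM in erlotinib and 77.9 CPM in control (6.74, 4.94 to 9.38), the cytokine Lif 83.4 CPM in erlotinib and 16.6 CPM in control (5.03, 2.51 to 11.2) and the complement gene C3 170.4 CPM in erlotinib and 76.3 CPM in control (2.23, 1.56 to 3.25). Single parts held 55.3% of Prg4 and 58.7% of C3 UMIs in control, and without the top parts the ratios were 12.4 and 4.45. Serpinb2, an inhibitor of plasminogen activators, had 77 UMIs in erlotinib and 0 in control, at least 27.5-fold higher at a floor of 3 counts in the control parts, with a lower interval end of 21.8.

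MHC class II genes, which present antigen, were higher over all mouse parts, 7 of 8 above, with a summed ratio of 1.49 (1.46 to 1.52). Macrophage markers were higher in the same parts, 9 of 10, with a summed ratio of 1.61 (1.57 to 1.66). Of all mouse genes of at least 10 CPM 13.9% were above and 12.6% below. Within macrophage-like parts the MHC class II sum was 28022 CPM in erlotinib and 28000 CPM in control, a ratio of 1.00 (0.98 to 1.03). Fibroblast-like parts had a sum of 874.9 CPM in erlotinib and 230.5 CPM in control, and macrophage markers summed there to 686.8 CPM in erlotinib and 104.5 CPM in control. The part of macrophage RNA in that difference was not tested.

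H2-Eb1, a beta chain of class II, did not follow the other class II genes. It had 3043 CPM in erlotinib, 2127 CPM in agrimoniin, 1521 CPM in the combination and 793.6 CPM in control over all mouse parts, with all treated libraries above control. Within macrophage-like parts it had 5155 CPM in erlotinib and 2066 CPM in control (2.50, 2.31 to 2.70). There the partner chains H2-Aa and H2-Ab1 had ratios of 0.95 (0.89 to 1.01) and 0.83 (0.78 to 0.89), the invariant chain Cd74 of 1.02 (0.96 to 1.09), and H2-DMa, which helps load peptide, of 1.61 (1.17 to 2.23).

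Within macrophage-like parts, genes of resident or alternatively activated macrophages had 8 of 15 above and 2 below, where 6.1% and 5.4% of all genes of at least 10 CPM were above and below. The chemokine Ccl8 had 718.3 CPM in erlotinib and 343 CPM in control (2.09, 1.72 to 2.57), and the mannose receptor Mrc1 301.7 CPM in erlotinib and 176.7 CPM in control (1.71, 1.28 to 2.29). Lyve1 (3.49, 1.53 to 9.27), Cbr2 (3.22, 1.86 to 5.90) and Ccl8 lead a cluster of 16 parts in erlotinib and 5 in control. In the largest macrophage-like cluster alone 6 of 13 measured genes of this list were above and 1 below. Of all 7914 genes of at least 10 CPM in that cluster, 380 were above and 445 below. The list median there was a log2 ratio of 0.18, against 0.66 over the whole class. Over the whole class the named genes furthest above control were Npl, an enzyme of sialic acid breakdown, Hspb1, Kitl, Siglec1, Pbx3 and Ralgapa1. Control UMIs of these genes ranged from 1 for Kitl to 7 for Siglec1, and 1 part held 46.7% of Hspb1 UMIs in erlotinib. Over all settings the log2 ratio ranged from 0.81 to 2.47 for Hspb1 and from 0.70 to 1.75 for Pbx3. Npl had 140.6 CPM in erlotinib and 12.99 CPM in control (10.8, 4.45 to 34.2).

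Those furthest below were Gdpd3, Hmgxb3, Inhba, Med29, Egr2 and Camsap1, with erlotinib UMIs from 3 for Hmgxb3 to 15 for Egr2. The activin subunit Inhba had 13.7 CPM in erlotinib and 70.2 CPM in control (0.20, 0.08 to 0.44). For Egr2 1 part held 61.5% of the UMIs in control, and without the top parts its ratio was 0.53 with an interval that held 1 (0.23 to 1.21). Pro-inflammatory genes had 5 of 12 above and 2 below in macrophage-like parts, with a summed ratio of 1.00 (0.95 to 1.05). Of all genes of at least 10 CPM in those parts, 6.1% were above and 5.4% below. Il1b had 882.8 CPM in erlotinib and 1354 CPM in control (0.65, 0.58 to 0.74) and leads a cluster of 42 parts in erlotinib and 25 in control, while the costimulatory receptor Cd40 had 108 CPM in erlotinib and 44.2 CPM in control (2.44, 1.41 to 4.46).

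**Figure D5:**
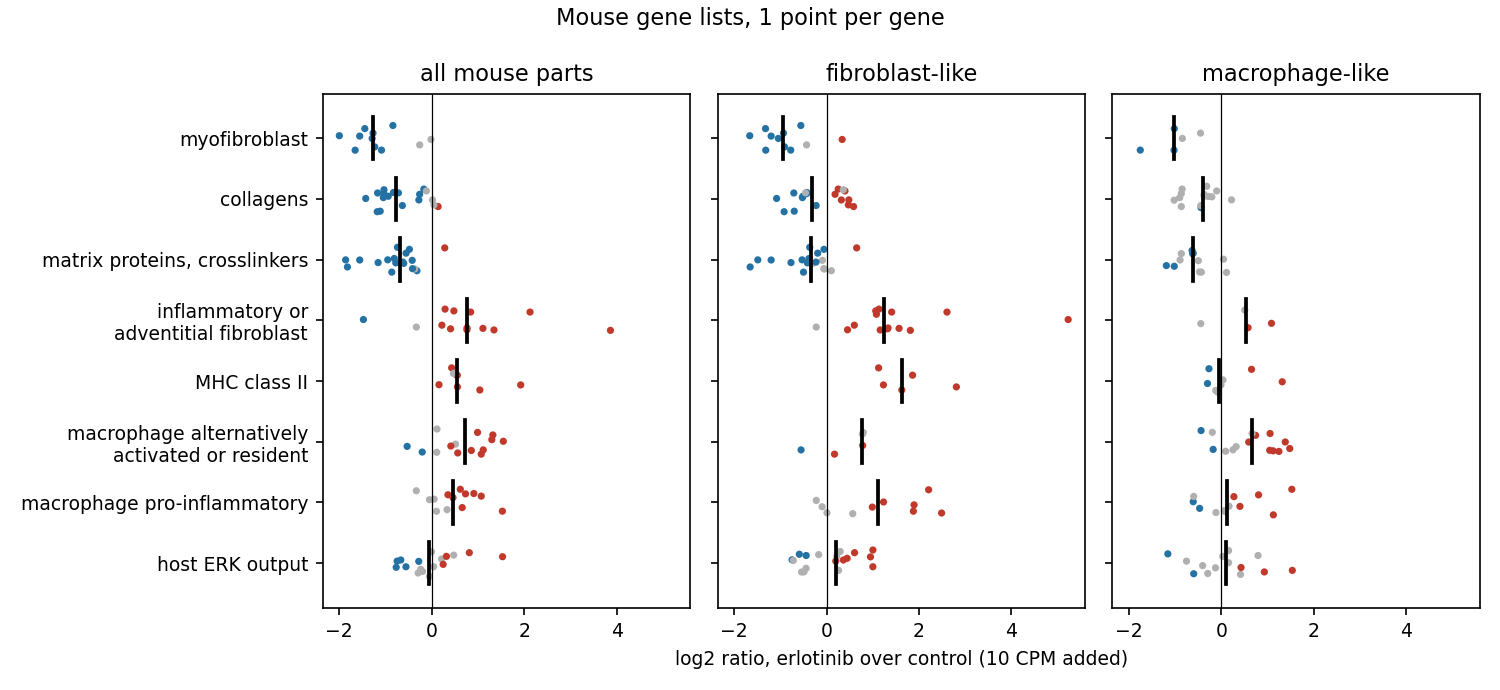
Log2 ratio of erlotinib over control for the measured genes of 8 mouse lists in all mouse parts, fibroblast-like parts and macrophage-like parts, with 10 CPM added. Colours and bars are as in the plot of human lists. Myofibroblast medians are -1.27 over all parts and -0.93 in fibroblast-like parts, and MHC class II medians are 0.55 over all parts, 1.63 in fibroblast-like and -0.04 in macrophage-like parts.

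ERK-dependent genes of the host were also split, with 4 above and 5 below of 17 measured. All mouse genes of at least 10 CPM had 13.9% above and 12.6% below. Dusp6 had 189.4 CPM in erlotinib, 274.2 CPM in agrimoniin, 302.6 CPM in the combination and 283.4 CPM in control, a ratio of 0.67 (0.57 to 0.79). It was lower in macrophage-like parts, with 133.7 CPM in erlotinib and 207.9 CPM in control (0.64, 0.46 to 0.89; 0.74 without the top part of each library), and in fibroblast-like parts, with 257.3 CPM in erlotinib and 353.2 CPM in control (0.73, 0.59 to 0.90). In the Grem1-led cluster alone the interval held 1 (0.88, 0.70 to 1.12). The brakes Spry1 (0.55, 0.36 to 0.85) and Spry4 (0.52, 0.35 to 0.77) and the phosphatase Dusp4 (0.56, 0.41 to 0.74) were lower over all mouse parts, where Dusp5 (1.79, 1.55 to 2.08) and Ccnd1 (3.48, 2.42 to 5.13) were higher.

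Of 9 genes of the host's own EGFR family 4 were measured, 1 above and 2 below, where 13.9% and 12.6% of all mouse genes were. Egfr had 59.3 CPM in erlotinib and 88.7 CPM in control over all mouse parts (0.67, 0.49 to 0.90). Fibroblast-like parts held 75 of its 82 UMIs in erlotinib and 97 of 102 in control, and there Egfr had 133.1 CPM in erlotinib and 160.8 CPM in control, a ratio of 0.83 whose interval held 1 (0.60 to 1.13). The ligand Hbegf was lower over all mouse parts (0.71, 0.58 to 0.88), and Nrg1, a ligand of the related receptor ERBB3, was higher (2.34, 1.55 to 3.62).

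Host division and metabolism genes also differed. Of 14 measured host cell cycle genes 6 were above and 0 below, with a summed ratio of 1.44 (1.31 to 1.59). Shares over all mouse genes of at least 10 CPM were 13.9% above and 12.6% below. Cdk1 had 52.0 CPM in erlotinib and 19.99 CPM in control (2.60, 1.61 to 4.36). The proliferation marker Mki67 was near control, with 80.2 CPM in erlotinib and 78.2 CPM in control (1.025, 0.77 to 1.37). The cycle sum had a ratio of 2.06 (1.78 to 2.40) within fibroblast-like parts and 1.33 (1.13 to 1.57) within macrophage-like parts. In the Grem1-led fibroblast cluster alone it was 1.18 (0.95 to 1.46), and in the largest macrophage-like cluster 1.11 (0.92 to 1.35). Of 16 host genes of glycolysis and lactate 10 were below and 0 above, with a summed ratio of 0.79 (0.75 to 0.82), the other side of control from the tumour parts. Within macrophage-like parts the interval of that ratio held 1 (0.95, 0.87 to 1.02), and within fibroblast-like parts it was 0.76 (0.72 to 0.81).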

How the data were processed

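The authors deposited UMI counts per gene and barcode for 4 single-cell libraries of PANC-1 tumours from nude mice. Cell Ranger with hg38 and mm10 is named in the submitters' processing notes, with no version. Collagenase II digestion and a 10x 3′ kit are named in the labels' protocols. Barcodes in the files are 27 bases long, which is not that kit's layout. Species were split by the feature prefix (36601 human and 32285 mouse features), and a misassigned read moves between them.

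Counts were summed over kept parts and scaled to CPM. Each ratio has an exact 95% interval, which fixes the total of a gene's counts in the 2 libraries. It was run on counts simulated with counting error alone, which cannot show its coverage under the wider spread of these data. A list gene was measured at a mean of at least 10 CPM and above or below when its interval excluded 1. Log2 ratios used a pseudocount of 10 CPM. Named genes were the 12 highest and lowest human, 8 mouse and 6 per class by log2 ratio at a mean of at least 20 CPM, a UMI in at least 10% of parts and an interval without 1, and the 4 largest per list. Other genes were named after their values were seen. Mouse parts of all 4 libraries were clustered in scanpy 1.11.5 by Leiden (resolution 0.5, 15 neighbours, 20 components of 2000 variable genes), and a name needed 3 markers. No doublet caller was run, because nearly every barcode was mixed. Gene positions are from GENCODE 29 and promoters from RefSeq (GRCh38.p14). The members and lists were chosen with earlier results of these data known. Intervals and floors (3 counts) cover counting error only. Python 3.11.15, numpy 2.4.6, scipy 1.17.1 and pandas 2.3.3 were used. A few genes that the naming rule or the lists hold are not reported here.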

Additional observations from a re-analysis of the deposited data

Results flagged for a closer look

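The following values lay on opposite sides of control in different cells of the same libraries, and the difference itself was not tested, with 1 library a side. Il1b had a ratio of 0.652 in macrophage-like parts (882.8 CPM in erlotinib and 1354 CPM in control) and of 12.6 in fibroblast-like parts (83.4 CPM in erlotinib and 6.63 CPM in control). Macrophage markers summed in those fibroblast-like parts to 686.8 CPM in erlotinib and 104.5 CPM in control, and their part in the result was not tested. Cxcl1, a neutrophil-attracting chemokine, had a ratio of 0.627 (0.394 to 0.997) in macrophage-like parts, with 66.8 CPM in erlotinib and 106.5 CPM in control. In fibroblast-like parts its ratio was 2.07 (1.88 to 2.29), with 2165 CPM in erlotinib and 1045 CPM in control.

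Between human and mouse parts, H19 had ratios of 2.08 and 0.287, with 21.0 CPM in erlotinib and 73.0 CPM in control in the mouse parts. MYL9 had ratios of 1.83 in human and 0.291 in mouse parts, where Myl9 had 24.6 CPM in erlotinib and 84.3 CPM in control. NID1 had ratios of 1.79 in human and 0.460 in mouse parts, where Nid1 had 321.6 CPM in erlotinib and 698.8 CPM in control. HMOX1 had ratios of 0.443 in human and 1.53 in mouse parts, where Hmox1 had 349.1 CPM in erlotinib and 227.7 CPM in control.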

How the results depend on the processing

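No paired analysis was possible because each group has 1 library and the labels give no replicate numbers. Of the alternative values of single human genes 1101 stayed within the counting interval, 144 moved beyond it and 15 changed the sign of a gene whose interval had excluded 1. For mouse genes these were 386, 23 and 1. Genes whose interval held 1, such as EGFR (log2 -0.09 to 0.23 over all settings), could also change sign and are not among the 15. With 1 library a group, no library was left out. Depth limits genes under about 10 CPM, and small subsets of parts raise the counts of large ratios. Settings for classes of mouse parts and top parts were chosen after seeing the data.

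The 138 higher and 115 lower human genes were 29 and 33 at a minimum of 50 CPM, 3930 and 3822 with no minimum, 243 and 208 at a mitochondrial limit of 10%, 300 and 275 in barcodes with at least 75% human UMIs, 330 and 280 beside macrophage-like parts, and 463 and 350 beside fibroblast-like parts. The 741 and 670 mouse genes were 341 and 303 at 50 CPM.

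Median log2 ratios of human lists moved as follows. S phase (0.25) was 0.33 over genes of at least 50 CPM and 0.33 beside macrophage-like parts. G2 and mitosis (0.12) was 0.0292 over genes of at least 50 CPM, 0.22 at 75% human UMIs, 0.25 beside macrophage-like and 0.41 beside fibroblast-like parts. ERK output (-0.06) changed sign to 0.0246 as a mean over barcodes and was -0.20 at 75% human UMIs. SRF and YAP targets (0.25) were 0.17 at 75% human UMIs and 0.35 beside fibroblast-like parts.

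In the host, the inflammatory fibroblast median (0.76) was 0.62 at 50 CPM, 0.32 as a mean over barcodes, 0.54 in macrophage-like and 1.24 in fibroblast-like parts. MHC class II (0.55) changed sign to -0.0450 in macrophage-like parts and was 1.63 in fibroblast-like parts. Myofibroblast genes (-1.27) were -1.02 and -0.93 in these classes. Macrophage-like parts were 64.9% in erlotinib and 48.5% in control when named by marker counts, and fibroblast-like parts were 19.3% in erlotinib and 27.2% in control at resolution 1.0.

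Other log2 values that were clear of 0 changed sign. At a mitochondrial limit of 10% these were the EGFR family (0.13), ribosomal proteins (-0.0118), CCL2 (-0.55) and CLDN4 (0.0237). At 75% human UMIs they were epithelial genes (-0.0796), FOS (0.00553) and VEGFA (0.11). Beside macrophage-like parts they were cell-cycle brakes (-0.0435), epithelial genes (-0.0751), PANC-1 markers (-0.0730), JUN (-0.0142), JUNB (-0.00981), EGR1 (-0.0318), IGFBP7 (-0.0696), KRT18 (-0.0730) and AJUBA (-0.0294). Beside fibroblast-like parts they were cell-cycle brakes (-0.0261), IGF2BP3 (-0.0564), PFKFB3 (0.0715), ANGPTL4 (0.25), TNFAIP3 (0.11) and BIRC3 (-0.13). Cell-cycle brakes were -0.0222 over genes of at least 50 CPM, and mouse Hp was 0.43 without its top barcode. Within classes, monocyte-recruiting chemokines were -0.43 and host angiogenesis 0.0299 in macrophage-like parts, and matrix proteases were 0.14 and host angiogenesis 0.00144 in fibroblast-like parts. The cause of these changes was not tested.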

Other observations

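Host genes of interferon response and chemokines were higher over all mouse parts. Among all mouse genes of at least 10 CPM 13.9% were above and 12.6% below. Of 13 measured interferon genes 7 were above and 0 below, with a summed ratio of 1.22 (1.16 to 1.28), which was 1.04 (0.96 to 1.12) within macrophage-like parts and 1.499 (1.38 to 1.63) within fibroblast-like parts. In those fibroblast-like parts the macrophage markers had a ratio of 6.58 (5.03 to 8.72), and their part in these values was not tested. Of 10 monocyte-recruiting chemokine genes 7 were above and 1 below, with a summed ratio of 1.40 (1.33 to 1.47). In fibroblast-like parts that ratio was 1.89 (1.78 to 2.00), and in the Grem1-led cluster alone 1.04 (0.95 to 1.13).

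Human ribosomal protein genes had 36 above and 16 below of 82 measured, with a summed ratio of 1.04 (1.03 to 1.04). Of 12 measured cholesterol synthesis genes 1 was below and 0 above. Of 12 measured hypoxia genes 1 was above and 2 below. Over all human genes of at least 10 CPM 11.3% were above and 9.35% below, so these 2 lists lay near the background.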
